A study of Mus musculus with 15 samples.

Results

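The level of MLX was pushed in opposite directions in C2C12 cells, an established mouse myoblast line whose cells divide as muscle precursors and fuse into myotubes when differentiation is induced. The comparison sets the 3 libraries of cells given a lentiviral short hairpin RNA against Mlx (the MLX shRNA group, or knockdown) directly against the 3 libraries of cells given a lentiviral construct for wild-type MLX (the MLX WT group, or overexpression). These are 6 of the 15 libraries of the series, chosen by their labels alone. The question is which transcripts differ between cells with the least and the most of one transcription factor. All groups were cultures of the same cell line that had been transduced with a lentivirus. The controls, used here for side values only, carried a non-targeting shRNA (NT shRNA, 3 libraries) or a vector expressing green fluorescent protein alone (GFP control, 3 libraries). A dominant-negative form of MLX (MLX DN, 3 libraries) entered the estimate of the spread. The labels name no promoter for the constructs, no dose of virus and no selection of the cells, and they do not say how many hairpins were used or give their sequence. MLX protein was not measured, and reads from the overexpression construct cannot be told apart from those of the cells' own gene.

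MLX belongs to the transcription factors that join a basic helix-loop-helix to a leucine zipper. It binds DNA as a pair with MLXIP (also called MondoA), with MLXIPL (ChREBP) or with members of the MAD family, at E-box motifs and at paired motifs known as carbohydrate response elements. MondoA and ChREBP activate their targets when glucose and its phosphorylated forms accumulate, and the MAD family represses. In skeletal muscle MondoA is the prominent glucose-responsive partner, and Txnip and Arrdc4, which encode arrestin-like proteins that restrain glucose uptake, are the best-known targets of the pair.

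Expression was deposited as log2 of FPKM (fragments scaled by transcript length and library depth) with an offset of 2. Tests were run on the 11945 of 23352 genes that reached an FPKM of 1 in 3 or more of the 15 libraries. Differences are MLX shRNA minus MLX WT on that log2 scale, so a negative value means less RNA in the knockdown, and the offset makes differences of weakly expressed genes smaller. A gene is called when its adjusted p by limma is under 0.05. The steps between low FPKM values gave depths of 37.7, 37.1 and 52.3 M reads in the MLX shRNA libraries and 66.3, 77.9 and 53.1 M in the MLX WT libraries. A floor of 3 reads on a transcript of 2000 bases lay between 0.0181 and 0.0404 FPKM over the 15 libraries and covers counting error only. Within a group, libraries correlated with r = 0.9978 to 0.9986 (MLX shRNA) and 0.9988 to 0.9989 (MLX WT) over the tested genes, and libraries of the opposing groups at 0.9705 to 0.9717. Nothing in the labels says that replicate libraries come from different cultures, and p-values here describe the spread between libraries, which may be technical. In bulk RNA, fewer cells of a kind and less RNA per cell cannot be told apart.

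The opposing groups differ in more than MLX, since one carried an shRNA vector and the other an expression vector. On the log2 scale the difference between them is the sum of 3 parts. These are knockdown against the NT shRNA, the GFP control against overexpression, and the NT shRNA against the GFP control. The last part holds no MLX construct and is called the vector part below. That name is a label only. Any other difference between the control cultures lies in this part too, and cannot be told apart from the vectors. Removing it leaves the difference between the knockdown's and the overexpression's own effects, called the control-relative difference, which was fitted as a contrast of its own. The vector part was large. Between the controls alone 74.1% of tested genes were called and 2.51% were called and differed at least 2-fold.

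Mlx differed more than any other tested gene. It stood at 2.88, 3.96 and 2.8 FPKM in the 3 knockdown libraries and at 655, 632 and 645 FPKM with overexpression. The groups were widely apart, and both controls lay between them with a mean of 17.1 FPKM in each. The log2 difference was -6.96 (SE 0.0596, limma adjusted p = 5.04e-20), made of -1.88 for knockdown against its control and 5.08 for overexpression against its control. Both labels therefore match the RNA. Mlx shares 19.4% of its exon bases with Psmc3ip on the opposite strand, which stood at 4.52, 4.77 and 5.62 FPKM in the knockdown and 7.24, 6.52 and 5.91 with overexpression. That neighbour was lower by 0.30 on the log2 scale in the knockdown (-0.30), and the reads of both genes may be mixed.

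Most partners and relatives of MLX differed little. Of 11 tested genes of the network 2 were called higher and 4 lower in the knockdown, with a median of -0.05 beside 0.03 for all tested genes. Mlx itself is counted among the 11 and among the 4, a call set by the constructs. Mlxip, the MondoA gene, was at 4.23, 3.62 and 3.63 FPKM against 3.64, 3.32 and 3.7, overlapping ranges with a log2 difference of 0.07 (SE 0.0539, limma adjusted p = 0.258). Mlxipl, the ChREBP gene, was at most 0.0206 FPKM in these 6 libraries and was not tested. Max, which encodes the common dimer partner of MYC and MAD proteins, was higher in the knockdown (21.8, 21.3 and 22.4 against 17.4, 17.4 and 17.6 FPKM, log2 0.29). Mxd3, a MAD family repressor made in dividing cells, was lower in all 3 libraries (8.89, 9.27 and 9.58 against 18, 17.3 and 19.4 FPKM, log2 -0.84), with a control-relative difference of -0.54. Mxd1 and Mnt, which encode repressors of the same network, were lower by similar amounts (log2 -0.31 and -0.30). Mycl1, a MYC family gene, was higher in the knockdown by 0.36, but its vector part was 1.31 and its control-relative difference was -0.94. Mxd4, Mxi1, Mga and Myc did not pass the test, with log2 differences of -0.05, -0.06, 0.05 and 0.03.

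Across the transcriptome, 4877 genes were called higher in the knockdown (40.8% of those tested) and 3931 lower (32.9%). Most of these differences were small, with medians of 0.24 and -0.27, and were called because the replicate error was smaller still (median SE 0.036). At least 2-fold differences were fewer and mostly in one direction, with 72 genes higher (0.603%) and 244 lower (2.04%). These counts depend on the offset of the scale: with an offset of 0.1 they were 231 and 599, and with an offset of 1 they were 115 and 362. The control-relative difference was called higher for 4286 genes (35.9%) and lower for 3521 (29.5%).

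The 3 parts were then read for the genes that differed at least 2-fold. Of the 244 genes at least 2-fold lower, 215 were also called lower with knockdown against the NT shRNA and 150 were called higher with overexpression against the GFP control. Both held for 130 of them (53.3%), against 9.19% of all tested genes. Their median difference was -1.36, with medians of -0.68 for the knockdown part, 0.26 for overexpression against its control and -0.38 for the vector part. Of the 72 genes at least 2-fold higher, 64 were called higher with knockdown and 33 called lower with overexpression. Both held for 28 (38.9%), against 9.28% of all tested genes. Their median difference was 1.21, with medians of 0.75 for knockdown, -0.05 for overexpression and 0.37 for the vectors. The parts add up to the difference that chose these genes, so the counts describe them and carry no test. The control-relative difference was called in the same direction for 222 of the 244 (91.0%) and 61 of the 72 (84.7%), and in the opposite direction for 14 and 4. Over all called genes it was called in the same direction in 2140 of 3931 lower genes (54.4%) and 2681 of 4877 higher ones (55.0%).

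**Figure D1:**
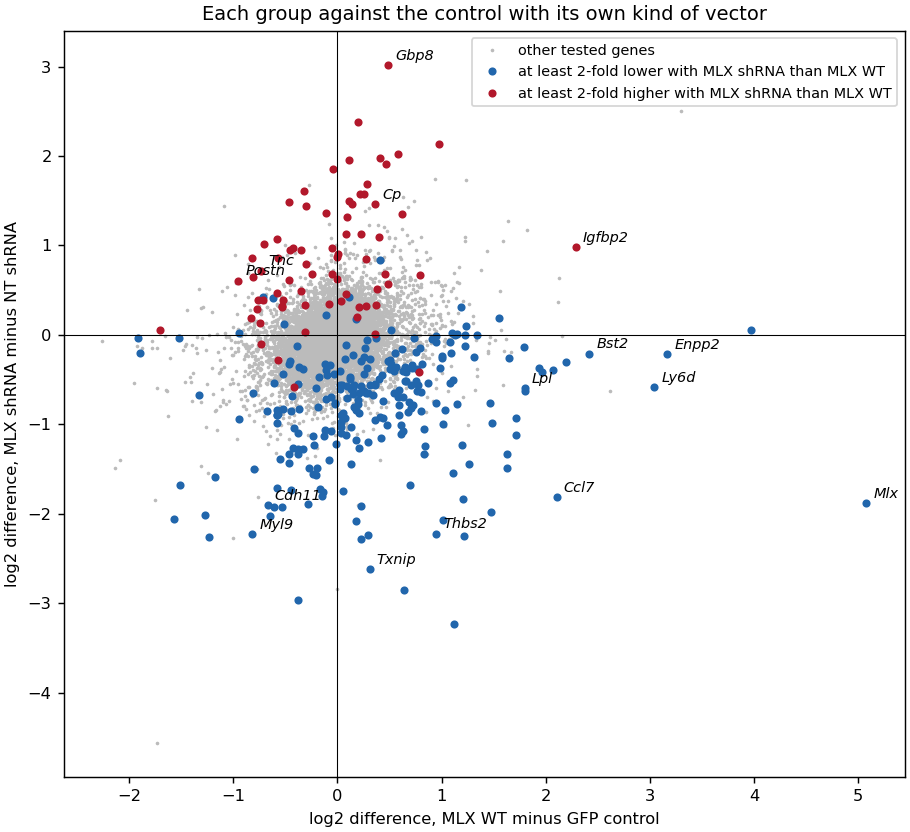
Log2 difference of MLX shRNA from NT shRNA (vertical axis) against that of MLX WT from the GFP control (horizontal axis), 1 point per tested gene, with the 244 genes at least 2-fold lower in the knockdown than with overexpression in blue and the 72 at least 2-fold higher in red. Mlx lies at the far lower right, and blue points such as Ccl7 and Thbs2 share its quadrant, while Gbp8 and Cp lie high on the vertical axis.

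Several of the 15 genes furthest below the overexpression encode secreted or surface proteins. Ccl7, a chemokine that attracts monocytes, stood at 0.398, 0.438 and 0.55 FPKM in the knockdown and 75, 78.2 and 72 FPKM with overexpression. No value of one group came near the other, and the control means lay between (6.67 in NT shRNA and 15.9 in the GFP control). Its log2 difference was -4.97 (SE 0.0632, limma adjusted p = 4.24e-18), with a control-relative difference of -3.92. Ccl2, the neighbouring monocyte chemokine gene, was at 0.822, 1.3 and 0.64 FPKM against 33.3, 32.4 and 32.3, a difference of -3.57 whose largest part on this scale was that of overexpression (1.96), with -0.41 for knockdown and -1.20 for the vectors. Il1rn, which encodes the secreted antagonist of the interleukin-1 receptor, was at 0.0427, 0.0326 and 0.0698 FPKM against 24.4, 24.2 and 24.7 and differed by -3.69.

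Enpp2, the gene of autotaxin, which releases the signalling lipid lysophosphatidic acid outside the cell, went from 0.0899, 0.108 and 0.0531 FPKM in the knockdown to 27, 26.6 and 27.2 with overexpression. Its difference of -3.80 held 3.17 for overexpression and -0.22 for knockdown on the log2(FPKM + 2) scale. This split depends on the offset, since the knockdown was also far below the NT shRNA in FPKM (a mean of 0.0837 against 0.426), with 1.22 in the GFP control. Ly6d, which encodes a lipid-anchored surface protein, was at 0.0383, 0.117 and 0.138 FPKM against 44.7, 44.3 and 43.9, a difference of -4.46 with 3.04 for overexpression and -0.59 for knockdown. There too the offset sets the split, as the knockdown mean was 0.0978 against 1.16 FPKM in NT shRNA and the overexpression mean 44.3 against 3.62 in the GFP control. Tmem86a, the gene of an enzyme that breaks down lysoplasmalogens, was at 2.37, 2.72 and 2.48 FPKM against 70.2, 68.3 and 70.1. Here knockdown and overexpression contributed in near equal measure (-1.49 and 1.63) to a difference of -3.98. Lpl, the gene of lipoprotein lipase, which frees fatty acids from circulating triglycerides, was at 8.41, 8.39 and 8.84 FPKM against 68.7, 69.4 and 71.9, a difference of -2.77 with an overexpression effect of 1.80.

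Thbs2, the matrix protein thrombospondin 2, stood at 9.71, 9.57 and 9.6 FPKM in the knockdown and at 152, 148 and 154 with overexpression, with the controls between at 52.2 (NT shRNA) and 77.1 (GFP control). It had the smallest p-value of these genes (log2 -3.72, SE 0.0231, limma adjusted p = 1.71e-21), with -2.22 from knockdown and 0.95 from overexpression. Angpt4, which encodes a ligand of the vascular receptor TIE2, was at 0.45, 0.44 and 0.475 FPKM against 18, 18 and 16.7 and its controls were alike (8.28 and 7.67). Its control-relative difference of -3.08 was therefore close to the direct one (-2.99). Emb, the gene of embigin, a membrane protein that accompanies lactate transporters, was at 1.24, 1.46 and 1.57 against 22.7, 22.3 and 23 FPKM (log2 -2.85). Pvalb, which encodes the calcium buffer parvalbumin of fast muscle fibres, was at 5.88, 6.64 and 6.9 against 72.1, 72.6 and 75.2 FPKM (log2 -3.15), and 2.19 of this was the overexpression effect.

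Among the 15 lowest genes, Cdh11 and Myl9 had another form. Cdh11, the gene of a cadherin of mesenchymal cells, was at 1.97, 1.89 and 1.85 FPKM in the knockdown, 28.9, 28.6 and 30.2 with overexpression, 12.6 in NT shRNA and 47.6 in the GFP control. Overexpression lay below its own control (-0.67), so that MLX WT was not the highest group, and the vector part of -1.76 was nearly as large as the knockdown part of -1.90. Myl9, a regulatory light chain of smooth-muscle and non-muscle myosin, was likewise highest in the GFP control (232 FPKM), and it stood at 14.9, 15.6 and 16.2 in the knockdown and 133, 128 and 132 with overexpression (log2 -2.92, control-relative -1.42). Ms4a4d, a gene of a family of membrane-spanning surface proteins, was listed at 0 in 2 knockdown libraries and at 0.0131 FPKM in the third, against 12.8, 13.1 and 13.6 with overexpression. Its fitted difference of -2.92 depends on the offset.

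**Figure D2:**
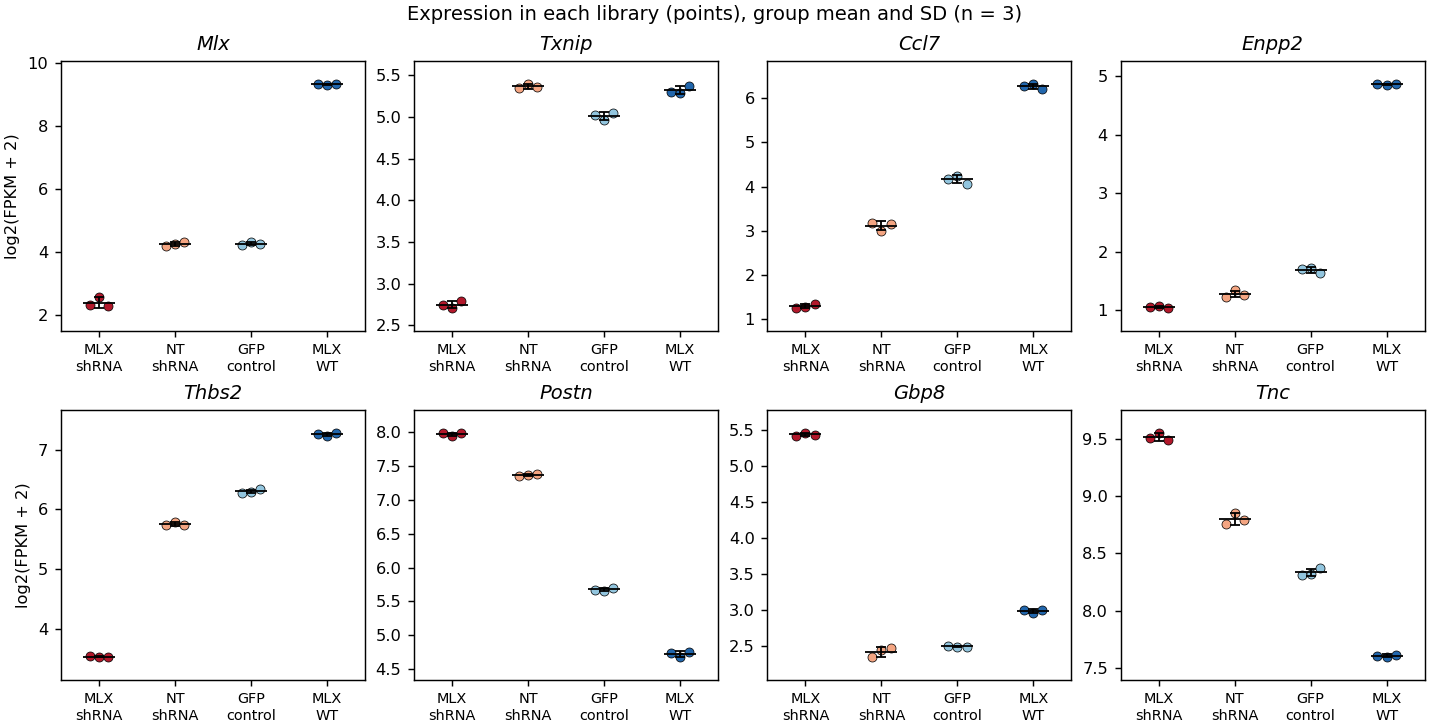
Expression as log2(FPKM + 2) (vertical axis) in each library of 4 groups (points), with the group mean and SD over 3 libraries, for 8 genes. For Mlx, Ccl7, Enpp2 and Thbs2 the controls lie between the opposing groups, while among these 4 groups Txnip is low in the knockdown, at 4.69, 4.54 and 4.93 FPKM, and Gbp8 is high there, at 40.6, 41.9 and 40.9 FPKM.

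At the other end, the 15 highest genes in the knockdown included matrix proteins, enzymes and guanylate-binding proteins. Postn, the matrix protein periostin, stood at 250.4, 244 and 251 FPKM in the knockdown and 24.8, 23.6 and 25 with overexpression. The order of the groups was knockdown, NT shRNA (163), GFP control (49.2) and overexpression. The log2 difference of 3.24 (SE 0.0243, limma adjusted p = 9.08e-21) held a vector part of 1.69, and the control-relative difference was 1.56. Tnc, which encodes the matrix protein tenascin C, was at 726, 750.1 and 718 FPKM against 193, 191 and 194, and its knockdown and overexpression effects had opposite signs (0.72 and -0.73). Cp, the gene of the copper-carrying ferroxidase ceruloplasmin, was at 33.2, 30 and 31.4 FPKM against 2.42, 2.08 and 2.26 (log2 2.98). Its parts were 1.46 for knockdown and 1.88 for the vectors, while with overexpression it lay slightly above the GFP control (0.36).

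For 3 enzymes and a transcription factor the knockdown made most of the difference. Padi2, the gene of a deiminase that turns arginine residues of proteins into citrulline, was at 77.9, 80.6 and 79.5 FPKM in the knockdown and 17.6, 17.1 and 17.8 with overexpression, a difference of 2.06 with a knockdown part of 1.92. Car3, a carbonic anhydrase gene of muscle, was at 400.3, 394 and 398 FPKM against a mean of 101 ± 1.1 (SD, n = 3) with overexpression (1.95, knockdown part 1.5). Msc, which encodes musculin, a repressor of myogenic transcription, was at 7.09, 8.1 and 7.54 FPKM against 0.677, 0.613 and 0.472 (1.89, knockdown part 1.57). The opposing groups did not overlap in these genes, which was a condition for choosing them. Stk32b, the gene of a serine and threonine kinase, was at 6.28, 6.29 and 6.06 FPKM against 0.416, 0.436 and 0.367 (1.77, knockdown part 1.57).

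Akap12, which encodes a scaffold that anchors protein kinase A, and Gas2, which encodes an actin-associated protein, lay above the overexpression by 1.65 and 1.58 on the log2 scale, and their vector parts were against this direction (-0.28 and -0.16). Sema7a, the gene of a membrane-anchored semaphorin, was at 86.3, 93.7 and 84.6 FPKM against 25.2, 25.3 and 23.6 (1.76, control-relative 1.39). Gap43, which encodes a growth-associated protein of nerve endings, was at 9.87, 10.3 and 9.73 FPKM against 1.58, 1.4 and 2.04 and differed by 1.71, with a vector part of 1.02.

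Over the 30 genes at the extremes (15 in each direction), SE lay between 0.0231 and 0.072, and no limma adjusted p exceeded 7.2e-13.

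**Figure D3:**
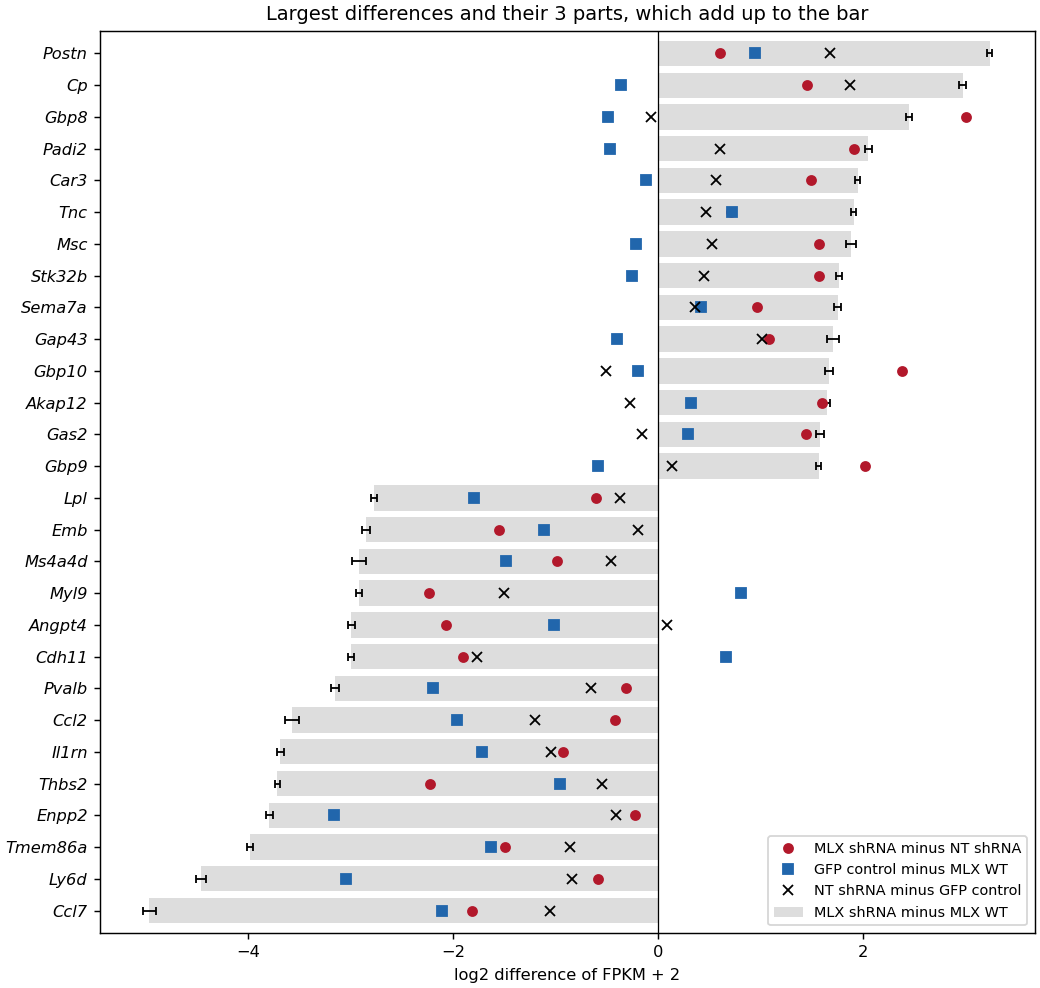
Log2 difference of MLX shRNA from MLX WT for 28 of the genes other than Mlx at the extremes (bars, with SE), with the 3 parts that add up to it (red circles, knockdown; blue squares, overexpression with its sign turned; crosses, vectors). On this scale Enpp2, Ly6d and Lpl carry most of their difference in the overexpression part, a split that for Enpp2 and Ly6d depends on the offset of 2, Padi2 and Gbp8 in the knockdown part, and Postn has its largest part in the vectors.

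Removing the vector part changed some of the genes that led. Mlx, Ccl7 and Ly6d stayed among the 5 lowest (-6.96, -3.92 and -3.63), and Gbp8 and Gbp10 among the 5 highest (2.53 and 2.18). Myl2, the regulatory myosin light chain of slow and cardiac muscle, was at 26.2, 28.6 and 25.2 FPKM against 74.1, 78.3 and 74.1, with 25.7 in NT shRNA and 2.95 in the GFP control. The knockdown part was 0.05, and the control-relative difference of -3.92 rested on overexpression against the GFP control (3.97), the lowest group. NT shRNA also lay above the GFP control, by 2.48, and the MLX DN group was highest, with a mean of 181.7 FPKM. In the other direction, Tspan7, a tetraspanin gene, was nearly level in the direct comparison (13.7, 13.5 and 13.3 against 11, 10.8 and 11.4 FPKM, log2 0.24). Its vector part of -2.28 hid a control-relative difference of 2.52. Tceal7 even changed sign, from -0.37 to 1.95. Ano5, a calcium-activated membrane protein gene that is mutated in a limb-girdle muscular dystrophy, was at 7.55, 7.01 and 7.1 against 2.46, 2.35 and 2.46 FPKM and went from 1.06 to 1.95.

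Txnip, the best-known glucose-responsive target, was low in the knockdown and not high with overexpression. The 250 bases upstream of its annotated start and of that of Arrdc4 are shown because they carry the motifs by which the MLX pairs are known to bind. In the first, capitals mark CACGAG, found as a pair 5 bases apart at -85 and -74 from the start. In the second, capitals mark the E-box CACGTG at -193. The Txnip window is chr3:96557707-96557956 (plus strand) and the Arrdc4 window chr7:68749239-68749488 (minus strand), both from RefSeq on GRCm38.p6 and 5′ to 3′ on the gene's strand.
Txnip: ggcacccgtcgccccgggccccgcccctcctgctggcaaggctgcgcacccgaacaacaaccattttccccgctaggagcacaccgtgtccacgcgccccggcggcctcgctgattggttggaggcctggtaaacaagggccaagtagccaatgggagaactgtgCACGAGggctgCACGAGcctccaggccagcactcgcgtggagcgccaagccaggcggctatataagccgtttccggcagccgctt
Arrdc4: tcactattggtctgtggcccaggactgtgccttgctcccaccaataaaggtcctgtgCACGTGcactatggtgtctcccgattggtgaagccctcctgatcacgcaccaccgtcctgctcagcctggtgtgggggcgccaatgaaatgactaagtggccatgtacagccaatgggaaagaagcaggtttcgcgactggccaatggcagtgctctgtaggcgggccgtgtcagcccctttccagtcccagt
CACGTG, which reads the same on both strands, was in 12.02% of the 9291 tested genes' promoters that the reference table holds (250 bases before to 50 after the start), in 7.47% of 174 at least 2-fold lower and in 6.82% of 44 at least 2-fold higher. The carbohydrate response element was searched as CAYGNG and CNCRTG 5 bases apart (Y for C or T, R for A or G, N for any base). This form was in 0.12% of all and in none of the 174 or the 44. It cannot match the CACGAG pair of Txnip, a gene among the 174, so its absence there does not cover that pair. The CACGAG pair was in 1 of the 9291, that of Txnip, and was chosen as a motif after that promoter was read, on both strands like the others. A match is a description of the letters only.

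Txnip stood at 4.69, 4.54 and 4.93 FPKM in the knockdown and 37.4, 37 and 39.4 FPKM with overexpression. The overexpression values lay between or near the control means of 39.3 (NT shRNA) and 30.2 (GFP control), and the knockdown stood far below all of them. The log2 difference of -2.57 (SE 0.0386, limma adjusted p = 2.25e-17) was thus a knockdown effect (-2.62), with 0.31 for overexpression. In the MLX DN group Txnip was lower still, with a mean of 1.31 FPKM. Gm15441, an antisense gene that covers 21.4% of Txnip's exon bases, ran parallel at 2.19, 2.06 and 2.51 FPKM against 17.9, 18 and 18.2, and the reads of both genes may be mixed. Arrdc4 did not pass the expression filter and has no test. It was at 0.0271, 0 and 0 FPKM in the knockdown, where the value above 0 is under the floor of 3 reads, and at 0.738, 0.91 and 0.882 with overexpression, with 0.127 in NT shRNA and 0.366 in the GFP control. Unlike Txnip, its highest group was the overexpression. Arrdc4, Gm15441 and Psmc3ip were picked after their values were seen.

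Of 21 tested glucose-responsive targets of the MLX partners, 13 were called lower in the knockdown and 4 higher, beside 32.9% and 40.8% of all tested genes, with a median of -0.16. Txnip was among the 13, and so were Scd1, the fatty acid desaturase gene (62.2, 61.2 and 59.6 against 106, 105 and 106 FPKM, log2 -0.77), Pfkfb3, whose product makes an activator of glycolysis (1.51, 1.64 and 1.43 against 4.6, 4.38 and 4.59, -0.89), and Me1, the NADPH-making malic enzyme gene (17.9, 17 and 16.6 against 30.1, 29.9 and 30.8, -0.75). Scd1, Pfkfb3 and Me1 were also lower in the knockdown than in NT shRNA and higher with overexpression than in the GFP control. With the vector part removed 9 members of the list were lower and 8 higher, with a median of -0.05.

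Glycolysis genes leaned further to the low side. Of 22 tested, 16 were called lower in the knockdown and 3 higher, with a median of -0.41, and the control-relative difference was lower for 15 and higher for 3 (median -0.50). Pgam2, the muscle form of phosphoglycerate mutase, was at 17.4, 15.6 and 17.2 FPKM against 76.8, 76.9 and 76.1 (log2 -2.07), although its vector part was -1.47 and its control-relative difference -0.60. Aldoa, the muscle aldolase, differed by -0.81 (802, 852 and 835 against 1465, 1438 and 1459 FPKM), Pgam1 by -0.59 and the triose phosphate isomerase gene Tpi1 by -0.57. In Aldoa and Pgam1 the knockdown was below NT shRNA and the overexpression above the GFP control. In the list of the hypoxia response 13 of 22 were lower and 3 higher, led by the collagen-modifying enzyme genes Plod2 (-1.16) and P4ha1 (-0.70). Ndrg1 and Vegfa, hypoxia-inducible genes for a stress protein and for the vascular growth factor, went the other way (0.71 and 0.48) but were negative once the vector part was removed (-0.35 and -0.14).

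Other metabolic lists were mixed. List counts are read beside the 40.8% called higher and 32.9% called lower of all tested genes, and control-relative counts beside 35.9% and 29.5%. Of 17 genes of the pentose phosphate and serine pathways 8 were higher and 6 lower (median 0.09), and control-relative 4 were higher and 7 lower (median -0.11). G6pdx, the entry enzyme of the pentose phosphate pathway, was at 14, 14.3 and 14.2 FPKM against 39.6, 39.2 and 41 (-1.38) and Idh1, cytosolic isocitrate dehydrogenase, at 17.5, 16 and 16.4 against 42.8, 43.5 and 43.6 (-1.28). Psph, the last enzyme of serine synthesis, was high in the knockdown (1.08) with a vector part of 1.21, and it shares 26.1% of its exon bases with Cct6a on the other strand. In fatty acid oxidation 8 of 20 were higher and 8 lower, and control-relative 13 and 3. Cpt1a, the enzyme that admits fatty acids to mitochondria, was lower by 1.30 on the log2 scale (-1.30, 4.77, 5.4 and 4.97 against 15.4, 14.8 and 15.8 FPKM), and the genes of the trifunctional protein that carries out the later steps, Hadha and Hadhb, were higher (0.42 and 0.55). In cholesterol synthesis 13 of 22 were higher and 7 lower, with Cyp51, the gene of lanosterol demethylase, among the higher ones (0.57). The citric acid cycle (10 higher, 7 lower of 21), glycogen (5 and 6 of 11) and fatty acid synthesis (7 and 5 of 17) showed no common direction. Among antioxidant genes 19 of 32 were lower and 11 higher (control-relative 18 and 11), with the glutathione transferase genes Gstm2 (-1.68) and Mgst1 (-2.08) lower and the peroxiredoxin gene Prdx2 higher (0.88, control-relative -0.44). The secreted superoxide dismutase gene Sod3 was at 0.686, 0.593 and 0.533 FPKM in the knockdown and 5.15, 5.05 and 4.76 with overexpression, while NT shRNA held 16.8 and the GFP control 2.49.

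In the direct comparison the matrix divided between collagens, which were low in the knockdown, and matricellular proteins, which lay on both sides. Of 18 tested fibrillar and network collagens 16 were called lower and 1 higher, 8 of them at least 2-fold lower, with a median of -0.51. The control-relative difference was lower for 9 and higher for 6 (median -0.30). Genes of type VI collagen, a microfibril of the muscle matrix, were the clearest. Col6a1 stood at 43.9, 46 and 44.2 FPKM in the knockdown and 212, 208 and 213 with overexpression (log2 -2.19), and Col6a2 at 15.8, 16.7 and 15.3 and 92.1, 92.2 and 91.2 (-2.39). In both the overexpression was only 0.23 above its control, so the difference was a knockdown effect. Col6a3 had nearly the same direct difference (-1.87), but there NT shRNA was at 35.6 and the GFP control at 136 FPKM, so that its control-relative difference was called in neither direction (limma adjusted p = 0.986). Col3a1, a fibrillar collagen, was at 286, 294 and 293 FPKM against 875, 866 and 857 (-1.57, control-relative -1.62).

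Of 38 other matrix genes 22 were called lower and 14 higher. Mgp, which encodes matrix Gla protein, an inhibitor of calcification, was at 32, 34.9 and 31.4 FPKM against 182, 179.9 and 179.6 (-2.39) and lay on the same side as Thbs2, opposite to Postn and Tnc. For target genes of TGF-beta and SRF, the serum response factor, the count was 11 lower and 7 higher of 22 (median -0.07), and control-relative it was 6 lower and 13 higher (median 0.19). Lbh, which encodes a transcription regulator, was at 56.9, 59 and 56.1 FPKM against 20, 19.9 and 20.5 (1.42), with hardly any vector part (0.02). Ctgf, the connective tissue growth factor gene, was higher than with overexpression by 1.32, but lower than in NT shRNA by -0.28, and its vector part was 1.03. All 5 tested fibroblast markers were lower in the knockdown (their sum with 3 untested ones was 110 to 112.1 FPKM against 246.3 to 247.5), and Thy1, Lum and Tcf21 were under 0.1 FPKM in all 6 libraries. Col1a1, which is in both this list and that of the collagens, held much of the sum (means of 47.7 against 148 FPKM). The sum was 541.4 to 553 FPKM in the GFP control and 315.2 to 334 in NT shRNA. The part of such cells in the result was not tested.

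Most interferon-response genes were lower in the knockdown than with overexpression, and the 2 called higher were the guanylate-binding protein genes Gbp4 and Gbp6. No other guanylate-binding protein gene of this list was called higher. Of 29 tested 26 were called lower and 2 higher, with a median of -0.64, and the control-relative difference was lower for 23 and higher for 5. The knockdown part had the smallest median (-0.10), beside 0.37 for overexpression against its control and -0.21 for the vectors. Bst2, the antiviral membrane tether tetherin, stood at 6.85, 7.81 and 7.34 FPKM in the knockdown and 59.6, 55.6 and 55.7 with overexpression. The controls were as low as the knockdown (8.8 and 9.04), so the difference of -2.66 was an overexpression effect. Ifih1, a sensor of viral RNA, had the same form at a lower level (0.286, 0.371 and 0.299 against 3.51, 3.31 and 3.25 FPKM, -1.21). Tapbp, which encodes the peptide-loading chaperone tapasin, differed by -1.25, mainly through the knockdown (-0.78).

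Gbp8, Gbp9 and Gbp10 encode guanylate-binding proteins, large GTPases that interferon induces and that attack intracellular pathogens, and they were among the 15 highest genes. Gbp8 stood at 40.6, 41.9 and 40.9 FPKM in the knockdown and 5.97, 5.71 and 5.94 with overexpression, Gbp9 at 19, 18.2 and 18.5 and 4.95, 5.04 and 4.81, and Gbp10 at 18.6, 17.2 and 18.1 and 4.31, 4.18 and 4.3. Their differences of 2.45, 1.57 and 1.67 were all smaller than their knockdown parts of 3.02, 2.02 and 2.38. Gbp6, an exception in the interferon list, was at 12.6, 11.2 and 12 against 3.3, 3.66 and 3.44 FPKM (1.35), and Gbp4, named here after its value was seen, was the other exception (1.48). Together they form a cluster of related genes on chromosome 5. How alike their sequences are was not measured, and reads may be split between them, so the members' separate values are uncertain.

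Secreted factors leaned to the low side in the knockdown, with 30 of 49 called lower, 12 of them at least 2-fold, and 19 higher. Igf2, a growth factor that muscle cells secrete as they differentiate, was at 32.2, 32.7 and 31.5 FPKM in the knockdown and 142, 143 and 141 with overexpression. The knockdown was apart from the overexpression and both controls, since the controls stood at 125 and 173, and the difference was -2.08. Igf1 was at 0.144, 0.127 and 0.158 FPKM against 2.46, 2.39 and 2.42 (-1.04), and Igfbp7, which encodes a secreted binding protein related to those of the insulin-like growth factors, at 33.1, 35.8 and 36 against 90, 86.7 and 94.2 (-1.32). Igfbp2, the gene of a binding protein of these factors, went the opposite way (291, 322 and 313 against 110.5, 103 and 108 FPKM, 1.51). The GFP control held 20.3 FPKM of it, below both groups, and the control-relative difference had the other sign (-1.31). Of the 17 tested genes of this growth factor system 11 were higher and 6 lower, and control-relative 7 and 7. Of 16 chemokine and cytokine genes 8 were lower and 7 higher, and in the control-relative difference 12 were lower and the other 4 not called. Csf1, the macrophage growth factor gene, was lower by 1.37 on the log2 scale (-1.37, 14.5, 15.7 and 14.3 against 41.5, 41 and 41.6 FPKM), and the chemokine gene Ccl8 was at 0.207, 0.105 and 0 against 4.42, 3.69 and 4.27 FPKM.

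Cell division genes were lower in the knockdown. All 30 tested mitosis genes were called lower, with a median of -0.75, and 27 of 32 DNA replication genes were called lower and the other 5 not called (median -0.35). Ccnb1, the cyclin that drives entry into mitosis, stood at 17.1, 17 and 16.9 FPKM in the knockdown and 38.6, 36.3 and 36.9 with overexpression (-1.05). Its partner kinase gene Cdk1 was at 17.4, 17.5 and 17.5 against 31.1, 31 and 32.1 (-0.78), and Top2a, which untangles chromosomes, at 32.7, 31.2 and 31.6 against 60.2, 60.3 and 62 (-0.89). The opposing groups did not overlap in these 3 genes, which were named for their low p within the list, so this adds no support. Tk1, the thymidine kinase of dividing cells, was lower by 1.28 (-1.28) and the helicase subunit gene Mcm4 by 0.67 (-0.67).

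Of the 3 parts the knockdown part had the largest median in both lists (-0.54 for mitosis and -0.51 for replication). The overexpression was itself below the GFP control (medians -0.24 and -0.40), and NT shRNA too (-0.36 and -0.28). The control-relative difference remained lower for 23 of 30 mitosis genes (median -0.30) and was lower for 15 of 32 replication genes, with 5 higher (median -0.15). Of 14 histone genes whose transcripts mostly lack a poly(A) tail 12 were lower, in libraries that were selected for one. Of 8 tested genes of cyclin-dependent kinase inhibitors and D cyclins 3 were higher and 5 lower (median -0.14), and control-relative 5 were higher and 1 lower (median 0.27). Among the D cyclins, Ccnd2 was at 7.8, 7.64 and 7.35 FPKM against 3.02, 2.96 and 2.81 (0.96) and Ccnd1 at 23.5, 24 and 23.6 against 15.5, 15.5 and 16 (0.54, sharing 21.9% of its exon bases with an antisense gene), both higher, while Ccnd3 was lower (-0.12). Of the inhibitors Cdkn1a, which encodes p21, was higher (751, 791 and 765 against 617, 603 and 617 FPKM, 0.33), and Cdkn1c and Cdkn2c were lower (-0.59 and -0.53), as were Cdkn1b and Cdkn2d (-0.16 and -0.24).

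The sarcomere, the contractile lattice of muscle, changed direction with the vector part. Of 44 sarcomere genes 31 were called lower in the knockdown than with overexpression and 7 higher, with a median of -0.22 and 9 members at least 2-fold lower. Their median vector part was -0.38, and once it was removed 27 were higher and 10 lower, with a median of 0.20. Myh4, the fastest adult myosin heavy chain, stood at 19.7, 21 and 20.4 FPKM in the knockdown and 103, 101 and 104 with overexpression (-2.22). NT shRNA was lower still (14.8) and the GFP control highest (158), so the control-relative difference was positive (1.03). The titin cap gene Tcap turned in the same way (-2.39 and 1.14), as did the perinatal myosin gene Myh8 (-1.38 and 0.43). The slow myosin gene Myh7 went from -1.55 to 0.09, which did not pass the test (limma adjusted p = 0.0805).

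Among genes of excitation and calcium handling, 13 of 23 were lower and 7 higher (median -0.13), and this list turned too, with 11 higher and 6 lower control-relative (median 0.07). Some members kept their sign. Mb, the oxygen store myoglobin, was at 233, 244 and 234 FPKM against 620.5, 616 and 619 (-1.38, control-relative -1.16), and the junction protein gene Trdn (triadin) at 4.24, 4.04 and 4.65 against 14.9, 14.8 and 15.7 (-1.44 and -0.88). Myogenic regulators were balanced, with 10 higher and 10 lower of 23. Mef2c, a transcription factor of muscle differentiation, differed by -1.59 (7.5, 6.75 and 6.88 against 25, 25 and 25.4 FPKM), all of it a vector part (-1.59). Cdon, a surface receptor that promotes myogenesis, was higher in the knockdown (113, 109 and 106 against 58.2, 57.1 and 57.8 FPKM, 0.90) with a control-relative difference of 0.57. Of 19 genes of fusion and adhesion 11 were higher and 6 lower, with the adhesion molecule genes Jam3 (0.76) and Ncam1 (0.61) among the higher ones. In the Notch pathway 8 of 13 were higher and 3 lower (control-relative 6 and 7), with Hes6 lower (-0.98) and Hey1, a target, higher (0.66). Dusp6, whose product switches off ERK kinases, was at 30.1, 30 and 30.6 FPKM against 13.7, 13.7 and 13.2 (1.05, control-relative 1.46), in a list of immediate early genes with 5 of 20 higher and 8 lower.

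Chaperones of the endoplasmic reticulum and the ribosome turned as well. Of 28 ER stress and ATF4 genes 21 were called higher in the knockdown and 2 lower (median 0.32), but with a median vector part of 0.56 the control-relative difference was lower for 21 and higher for 4 (median -0.25). The list's median was above the matching control with knockdown (0.15) and, by more, with overexpression (0.46). Hspa5, the main chaperone of that compartment, was at 785, 786 and 790.1 FPKM against 484, 482 and 494 (0.69 and -0.20). It lay above the matching control with knockdown (0.41) and with overexpression (0.61). The calcium-binding chaperone gene Calr, on chromosome 8, went from 0.85 to -0.81. Its parts were 0.07 for knockdown, 0.88 for overexpression against its control and 1.66 for the vectors. A run of chromosome 8 genes described below had similar median parts (0.13, 0.81 and 1.5), and a shared cause was not tested. Pdia6, a disulfide isomerase, kept its sign (0.86 and 0.30). Of 74 cytosolic ribosomal protein genes 47 were lower and 10 higher (median -0.13), a count that moved to 27 and 19 with quantile normalization, and in the control-relative difference 53 were higher and 3 lower (median 0.24). Of 60 oxidative phosphorylation genes 28 were lower and 17 higher (median -0.05), with 34 higher and 12 lower control-relative. Of 22 ribosome biogenesis genes 19 were higher in the knockdown and the other 3 not called, by small amounts (median 0.19, Nat10 0.43, Nop2 0.38), and their control-relative median was 0.05. Of 33 lysosome and autophagy genes 18 were lower and 7 higher (median -0.10), with the autophagy receptor gene Sqstm1 at -0.74, and control-relative 10 were lower and 14 higher (median 0.04). Of 13 genes of muscle atrophy 8 were lower and 3 higher (median -0.25), with the ubiquitin ligase gene Fbxo32 at 9.76, 9.34 and 9.85 FPKM against 15.7, 15.2 and 15.7 (-0.59), and control-relative 3 were lower and 7 higher (median 0.15). Among 20 housekeeping genes 9 were higher and 4 lower, with a median of 0.02.

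**Figure D4:**
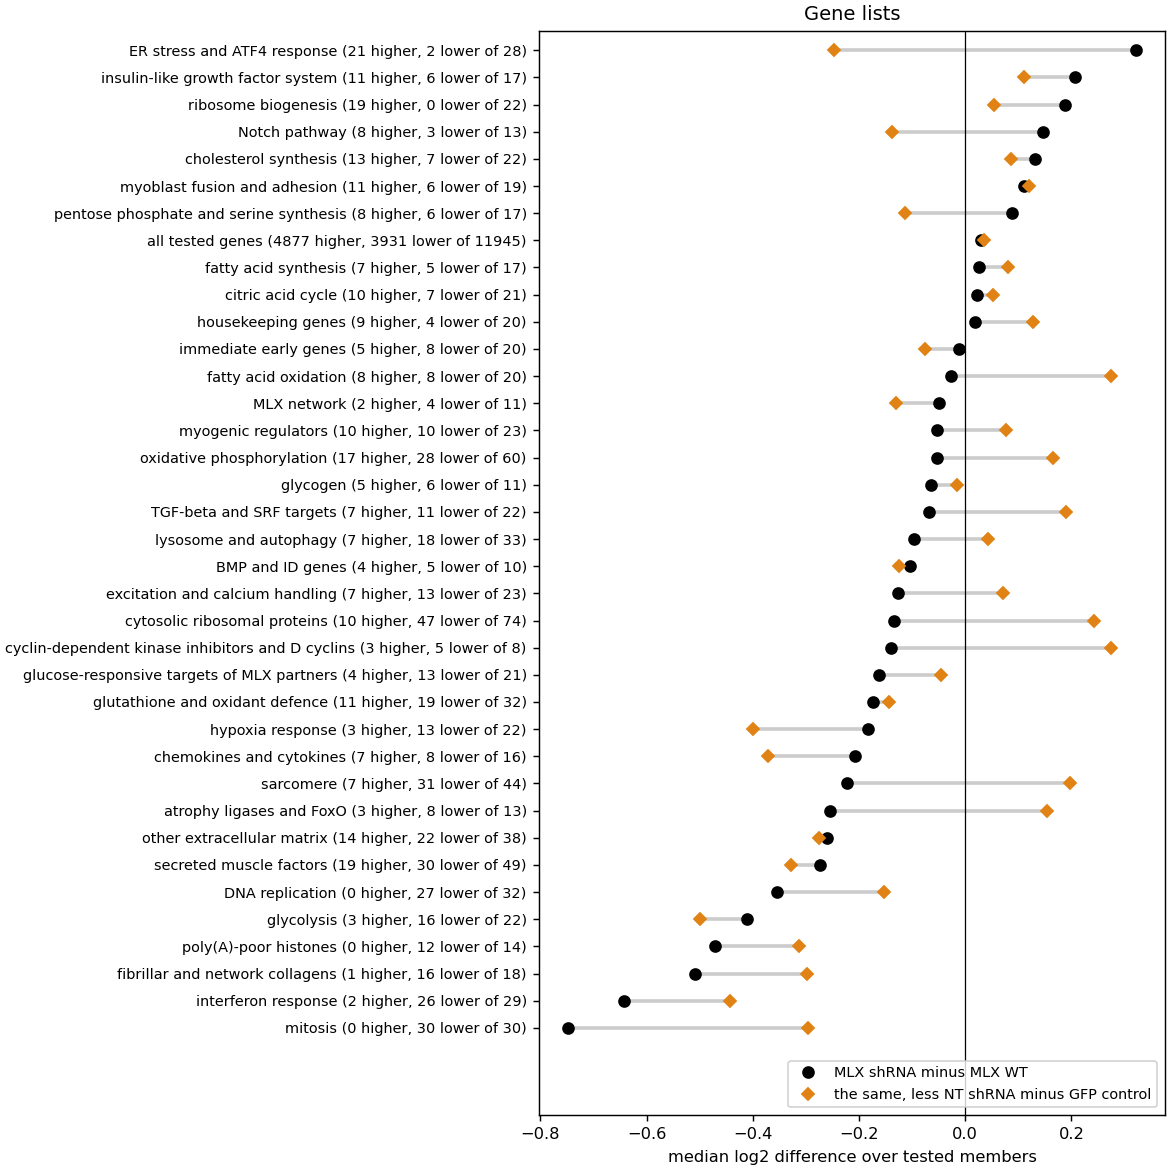
Median log2 difference over the tested members of each gene list, for MLX shRNA minus MLX WT (black) and for the control-relative difference (orange), with the counts called higher and lower beside the name. Mitosis (-0.75), interferon response (-0.64) and glycolysis (-0.41) lie on the low side in both, while the sarcomere, ribosomal protein and ER stress lists lie on opposite sides of 0.

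The cells carried the markers of myoblasts in both groups. All 8 were expressed, 4 of them higher and 4 lower in the knockdown, with Myod1 at a mean of 74.5 FPKM against 80.1 and Des at 1056 against 1126. Of 6 endothelial markers none was tested, and 5 were under 0.1 FPKM in all 6 libraries. Of 8 adipocyte markers Adipoq, Plin1, Cidec and Cfd were under 0.1 FPKM in all 6, and Fabp4 reached 0.48 FPKM with overexpression. Of the 3 tested ones Lpl and Cebpa were lower in the knockdown, Cebpa with means of 3.58 against 6.37 FPKM (-0.59), and Pparg did not pass the test (means of 2.33 against 2.67). The sum of the 8 was 14 to 14.8 FPKM in the knockdown and 78.1 to 81.5 with overexpression. Lpl made most of this sum, with means of 8.55 and 70.0 FPKM. All 5 tested smooth muscle markers were lower in the knockdown, Myh11 being under 0.1 FPKM, and their sum was 757.3 to 848.1 FPKM against 1223 to 1230. Most of that sum was Acta2, with means of 760.5 and 1175 FPKM. Of 6 macrophage markers Ptprc and Emr1 were listed at 0 in all 6, and Cd68 was lower in the knockdown (means of 1.16 against 1.65 FPKM, log2 -0.20). Tubb3, a tubulin of neurons that is also made elsewhere, was the 1 tested neuronal marker and stood at 21.5 FPKM against 7.63.

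Differences also ran together along chromosomes. Among the 8417 genes with a mean FPKM of at least 5, the median difference was 0.32 over the 503 genes of chromosome 5, of which 417 were called higher in the knockdown and 40 lower. It was 0.23 on chromosome 9 and 0.22 on chromosome 12, and -0.17 on chromosome 16 and -0.15 on chromosome 13, beside 0.04 over all chromosomes. On chromosome 5 the 3 knockdown libraries lay 0.14, 0.15 and 0.16 above the mean of all 15 libraries and the MLX WT libraries at -0.16, -0.19 and -0.16, with no overlap. The controls were apart there too, as the vector part of that chromosome was 0.13. The libraries of one group lay on each chromosome within a few hundredths of a log2 unit of each other. Gene copy number was not measured, and its part in these values was not tested. With each chromosome's median removed from every library, an alternative chosen after seeing the data, 4757 genes were called higher and 3683 lower, and 72 and 226 at least 2-fold. The Gbp cluster lies on chromosome 5, where its differences of 1.35 (Gbp6) to 2.45 (Gbp8) stand beside the chromosome's median of 0.32. Mlxip lies there as well, and with the medians removed it was at -0.21 and called lower (limma adjusted p = 0.00322), where it had not passed the test.

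**Figure D5:**
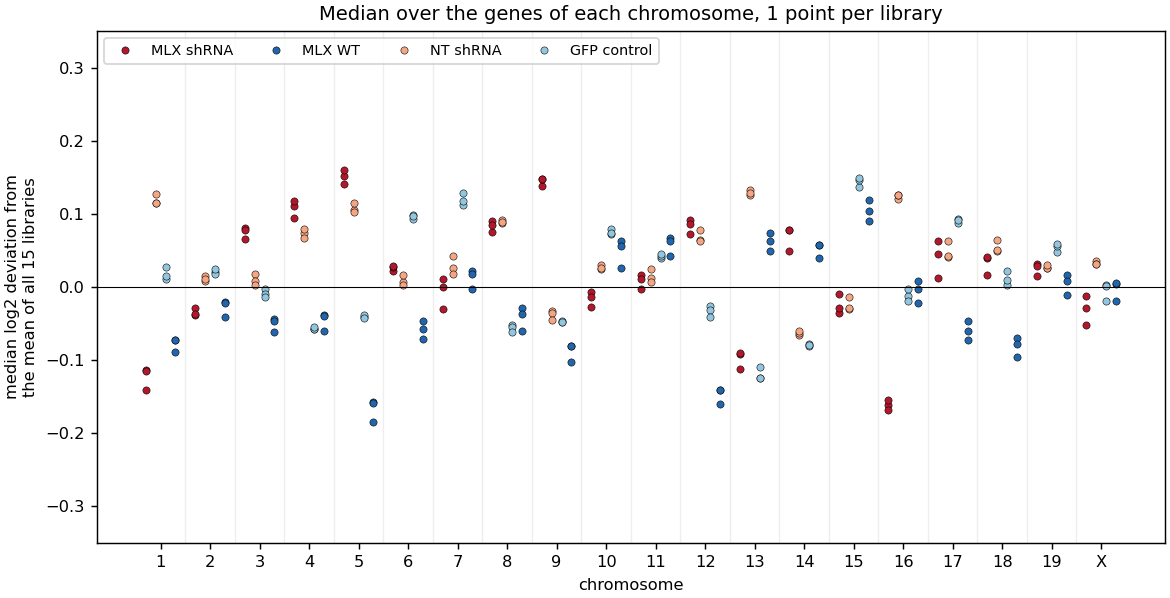
Median log2 deviation from the mean of all 15 libraries (vertical axis) over the genes of each chromosome (horizontal axis), 1 point per library of 4 groups. On chromosome 5 the MLX shRNA libraries are highest, at 0.14 to 0.16, and the MLX WT libraries lowest, and on chromosome 16 the MLX shRNA libraries are lowest.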

How the data were processed

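The series holds 15 libraries of poly(A)-enriched RNA from C2C12 cells, 6 of which are compared here. Sample labels gave each library its group and number. A TruSeq stranded kit was used, per the labels' protocols. CASAVA, TopHat2, STAR and the mouse build mm9 are named, without roles, in the submitters' processing notes. Strand use in counting is not given in the sources used.

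The deposited table lists log2 FPKM values of 23352 genes, with a minimum of 1 in each library, and was read as log2(FPKM + 2), the offset for which FPKM times RefSeq transcript length summed to 0.941 to 0.973 M per library. It gives no counts, so no count model was used. Depth was estimated from the steps of low FPKM values: at the estimate 63.7% to 66.1% of them were whole reads (tolerance 0.05 reads), against 23.0% to 24.7% at other depths.

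Genes that reached FPKM 1 in 3 or more libraries were fitted with limma 3.58.1 in R 4.3.3 (1 mean per group over all 15 libraries, variance trend, two-sided, Benjamini-Hochberg over all 11945 genes, threshold 0.05). The procedure was tested on simulated data. The members and lists were chosen with earlier results of these data known. Genes named are the 15 highest and 15 lowest called genes without overlap between the groups and with a mean FPKM of 2 or more in the higher group, predicted genes left out, then the 5 at each end of the control-relative difference, the MLX network, and up to 4 members of lowest p in each of 36 lists; some of these are not reported here. Among 172 named genes 10 had an antisense gene over 10% or more of their exon bases. RefSeq (GRCm38.p6) gave chromosomes and gene order for 99.0% of tested genes.

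Alternatives tried were the offset, the filter, the scaling, the variance model, a fit to the compared groups, removal of GC and length trends, a replicate block, and each library left out in turn. Removal of chromosome medians and the CACGAG pair were added after seeing the data.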

Additional observations from a re-analysis of the deposited data

How the results depend on the processing

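The 178 results for single genes kept their direction and their side of the threshold in 3073 of 3078 recomputed values. The exceptions were Mlxip, which turned to -0.21 (limma adjusted p = 0.00322) with chromosome medians removed, and Mxd4, Mga and Myc, which passed the test at -0.32, 0.10 and 0.20 under the same alternative, Mxd4 also without MLX shRNA replicate 2 (-0.13). The count at least 2-fold higher moved from 72 to 231 with an offset of 0.1 and 115 with an offset of 1, and the count at least 2-fold lower from 244 to 599 with an offset of 0.1, since a smaller offset widens the differences of weakly expressed genes. Median centring gave 4556 genes called higher and 4211 lower, and quantile normalization 5015 and 3876. With each library left out in turn, 4519 to 4759 genes were called higher and 3662 to 3878 lower, 70 to 75 and 240 to 249 differed at least 2-fold, the control-relative difference was higher for 4006 to 4345 and lower for 3314 to 3535, and Mlx differed by -7.06 to -6.90. Same-numbered libraries of the opposing groups did not deviate together (correlations of -0.013, -0.012 and 0.052 over 6183 genes), so the numbers do not pair them, and the replicate block gave 4886 genes higher and 3942 lower. Of the counts of list members 1202 of 1224 recomputed values stayed within 1.5 times. Those that moved included ribosomal proteins with chromosome medians removed (1 higher) and with quantile normalization (19 higher and 27 lower), and oxidative phosphorylation with chromosome medians removed (12 lower), and the cause was not tested. With the filter at FPKM 5 fewer members were tested, and 12 interferon genes were lower. Precision at low expression is limited by depth, which was lowest in the MLX shRNA libraries.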

Other observations

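Bglap2, an osteocalcin gene that marks bone-forming cells, was high in every group given an MLX construct. It stood at 59.3, 67.0 and 66.0 FPKM in the knockdown and at 63.1, 64.3 and 61.6 with overexpression, ranges that overlap, with a log2 difference of 0.02 (limma adjusted p = 0.719). Both groups lay above both controls, whose means were 9.66 FPKM in NT shRNA and 4.6 in the GFP control, knockdown by 2.51 on the log2 scale over NT shRNA and overexpression by 3.30 over the GFP control. The MLX DN group was alike, with a mean of 57.5 FPKM. Of the 9 osteoblast markers Sp7, Alpl and Ibsp were under 0.1 FPKM in all 6 libraries. Spp1, the osteopontin gene, and Dmp1 were lower in the knockdown (means of 565 against 994 and of 0.951 against 1.72 FPKM), and Runx2 and Bglap did not pass the test between the opposing groups. Like Bglap2, Bglap lay above both controls, with means of 3.05 FPKM in the knockdown and 3.29 with overexpression. NT shRNA held 0.432 FPKM of it and the GFP control 0.264, and the MLX DN mean was 2.81. Bglap2 was picked after its values were seen, and a direct comparison of the opposing groups does not show its difference from the controls.

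Of 10 BMP and ID genes 4 were higher in the knockdown and 5 lower. Grem1, which encodes the secreted BMP antagonist gremlin, was at 23.1, 23.6 and 22.1 FPKM against 11, 11.9 and 11.8 (log2 0.88), and Id1, which encodes an inhibitor of myogenic transcription factors, was lower (-0.73). Id2 went the other way (0.56). Among early growth-response genes Klf4 was lower (-0.75) and Ier3 higher (0.96).

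On chromosome 8 a run of 11 neighbouring genes from Dhps to Lonp2 had a median difference of 0.80, all 11 in the same direction, beside 0.12 for that chromosome. Its median parts were 0.13 for knockdown, 0.81 for overexpression against its control and 1.5 for the vectors, so the run lay above the GFP control in NT shRNA, in the knockdown and, by less, with overexpression. It was named after its values were seen, and its cause was not tested.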
